A study of Mus musculus with 18 samples.

Results

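The genes described here are *Dppa2*, *Dppa3*, *Dppa4* and *Dppa5a*, whose name stands for developmental pluripotency associated. They were taken by symbol from the deposited expression table and are 4 of its 24369 genes. Their levels were followed in mouse embryonic stem cells (mESCs) of the E14 line, all with the genotype Rex1GFPd2-Cas9, that is, with a destabilized GFP reporter of *Rex1* (listed as *Zfp42*) and with Cas9. A time course held 3 libraries each of day 0, day 1, day 2 and day 3 of differentiation, with no other treatment in the labels. A second experiment held 2 libraries each of GFP+ cells of 3 genotypes, wild-type, *Nprl2*-/- (called *Nprl2* KO) and *Tsc2*-/- (called *Tsc2* KO). The GFP+ cells were sorted for reporter expression, so each library holds the cells that still expressed *Rex1*. *Nprl2* is a subunit of Gator1 and *Tsc2* of the Tsc complex, and both complexes restrain the growth kinase complex mTORC1. According to the methods of the study, KO lines were made by removing a critical exon with a pair of guide RNAs, and mESCs were kept on feeder fibroblasts in serum and LIF unless stated otherwise. The labels do not say whether libraries of a group came from separate clones or cultures, so p values measure the spread between these libraries, which may be technical.

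The 4 genes share a name and an early embryonic pattern more than a function. *Dppa2* and *Dppa4* encode SAP-domain proteins that bind each other and sit on chromatin at CG-rich promoters, and they are known to be needed for activation of *Dux* and *Zscan4* genes, which mark the 2-cell embryo and a rare state of cultured mESCs. *Dppa3* (Stella) is a maternal and germ cell factor that keeps Uhrf1 from directing maintenance DNA methylation, and in serum cultures it is known to be expressed in only some of the cells. *Dppa5a* (Esg1) encodes a small KH-domain RNA-binding protein that is abundant in pluripotent cells.

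By the RefSeq annotation of GRCm38.p6, *Dppa4* (chr16:48283735-48294292) and *Dppa2* (chr16:48310274-48319513) lie side by side on chromosome 16 with 15981 bases between them. *Dppa3* is at chr6:122626424-122630271, between *Gdf3* and *Nanog*. *Dppa5a* is at chr9:78367052-78368199, between *Gsta2* and *Ooep*. Levels are given as TPM, in which the authors scaled the estimated number of transcripts for length and for the library total. The values sum the exons of whole transcripts. Only *Dppa4* had more than 1 transcript in the files. Its main transcript NM_028610.2 held a mean of 93.9% to 97.8% of the gene's TPM in the 7 groups. Pseudogene copies of *Dppa3* and *Dppa5a* are annotated in the mouse genome, and reads that they share would have been divided by the counting tool.

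The estimated counts summed to between 12503005 and 15305054 per library in the time course and to between 8610357 and 13780861 in GFP+ cells. The 6 mESC markers checked were detected in every group. In the KO libraries, *Nprl2* itself was at 8.09 and 8.65 TPM in *Nprl2* KO against 16.1 and 17.0 TPM in wild-type, and *Tsc2* was at 18.8 and 20.3 TPM in *Tsc2* KO against 45.0 and 44.9 TPM in wild-type. The summed TPM of 8 feeder fibroblast markers lay between 9.61 and 18.0 at day 0, 108.8 and 153.5 in wild-type GFP+ cells, 113.5 and 118.3 for *Nprl2* KO, and 38.4 and 137.7 for *Tsc2* KO. It lay between 12.8 and 15.7 at day 1, 29.2 and 31.7 at day 2, and 32.9 and 41.8 at day 3. The markers did not move together, since of 7 tested at day 3 against day 0, 3 were called higher and 4 lower (edgeR, adjusted p under 0.05). Of all genes tested, 70.9% were called there. *Lum*, one of these markers, was at 0 in every library of days 0, 2 and 3. In GFP+ cells it was at 0.171 TPM or less, so it does not separate the experiments. The part of feeder RNA in the differences between genotypes was not tested. As these are bulk samples, fewer expressing cells and less RNA per cell cannot be told apart.

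All 4 genes fell over 3 days of differentiation, but not all on the same schedule. *Dppa3* and *Dppa5a* had similar courses, with mean TPM at 23.2% and 18.1% of day 0 at day 2. At day 3 they were at 6.77% and 5.92%. At day 1 only *Dppa4* was called different from day 0, and it was higher. The background for that comparison was 60.9% of 14382 genes tested called in either direction (edgeR, adjusted p under 0.05) and 30.1% higher. At day 2, *Dppa2*, *Dppa3* and *Dppa5a* were below day 0, where 66.6% of genes were called and 32.4% were lower. At day 3 all 4 were below day 0, where 70.9% of genes were called and 35.9% were lower. Against day 1, all 4 were lower at day 2 and again at day 3, beside backgrounds of 62.1% called and 29.6% lower at day 2 and 71.2% called and 35.0% lower at day 3. Between days 2 and 3, *Dppa2*, *Dppa4* and *Dppa5a* fell further, where 31.5% of genes were called and 15.6% were lower. Changes were thus common among all genes.

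**Figure D1:**
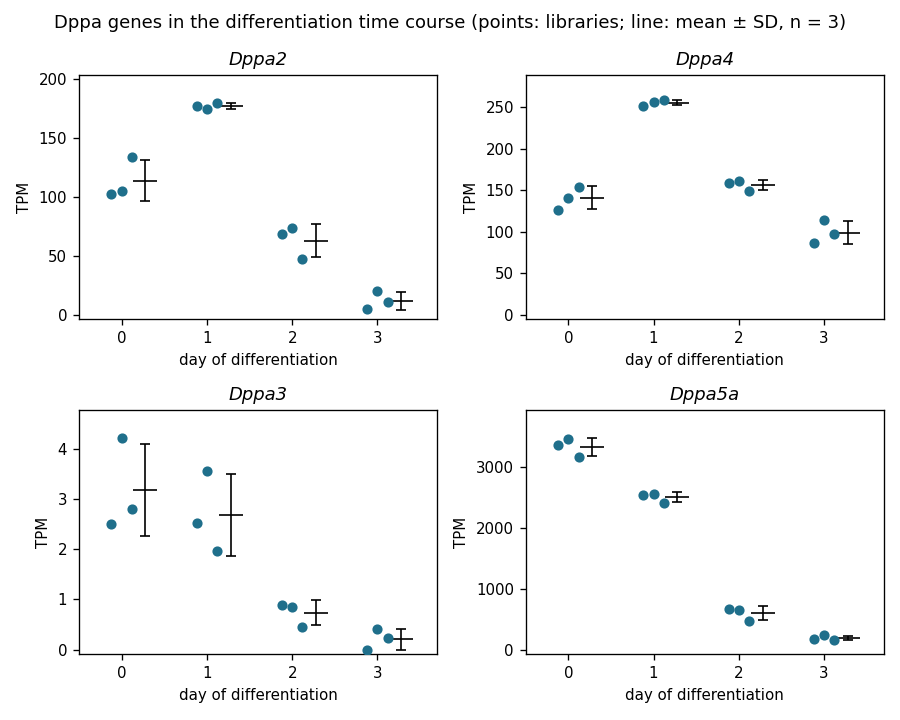
TPM of *Dppa2*, *Dppa4*, *Dppa3* and *Dppa5a* (vertical axes, each from 0 on its own linear scale) against day of differentiation, with 1 point per library and the mean ± SD of 3 libraries as a black line. *Dppa2* and *Dppa4* were highest at day 1, while *Dppa3* and *Dppa5a* had their highest means at day 0.

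*Dppa2* rose for a day and was then nearly lost. Its TPM was 102.5, 104.7 and 134.0 in the 3 libraries of day 0 and 176.8, 174.8 and 179.6 at day 1. It was 68.4, 73.3 and 47.3 at day 2 and 5.20, 20.4 and 11.2 at day 3. No 2 days overlapped. The log2 fold change from day 0 to day 1 was 0.71 ± 0.30 (SE), which did not pass the threshold (edgeR adjusted p = 0.0685), although a fit of these 2 days alone did (adjusted p = 6.16e-05). From day 1 to day 2 the log2 fold change was -1.60 ± 0.31 (adjusted p = 0.00187) and from day 2 to day 3 it was -2.41 ± 0.38 (adjusted p = 0.00186). At day 3 the mean stood at 10.8% of day 0, a log2 fold change of -3.31 ± 0.37 (adjusted p = 4.12e-05). The call of day 2 against day 0 was less firm, with a log2 fold change of -0.89 ± 0.31 (adjusted p = 0.0318). It was lost without day 0 library 3 (-0.75, adjusted p = 0.0921), without day 2 library 1 (-0.96, adjusted p = 0.0573) or without day 2 library 3 (-0.73, adjusted p = 0.0869), and in limma on log2(TPM + 1) (adjusted p = 0.0699).

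*Dppa4* rose at day 1, as the mean of *Dppa2* did, but kept most of its RNA. Its TPM was 127.0, 141.1 and 154.7 at day 0 and 252.1, 255.9 and 258.9 at day 1. It was 158.7, 161.7 and 149.4 at day 2 and 86.4, 114.3 and 97.1 at day 3. Every library of day 1 was above every library of the other days, days 0 and 2 overlapped, and day 3 lay below all of them. The log2 fold change was 0.93 ± 0.09 from day 0 to day 1 (edgeR adjusted p = 8.32e-08), -0.82 ± 0.09 from day 1 to day 2 (adjusted p = 4.65e-07) and -0.70 ± 0.09 from day 2 to day 3 (adjusted p = 3.36e-05). Day 2 was not called against day 0 (0.12 ± 0.09, adjusted p = 0.265). At day 3 the mean was 70.5% of day 0, a log2 fold change of -0.59 ± 0.09 (adjusted p = 1.78e-05).

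The pair therefore separated as differentiation went on. Since TPM is scaled for length, the 2 genes can be set against each other within a library. The ratio of *Dppa2* to *Dppa4* TPM was 0.807, 0.742 and 0.867 at day 0, 0.701, 0.683 and 0.694 at day 1, 0.431, 0.453 and 0.317 at day 2, and 0.0602, 0.178 and 0.115 at day 3. The ratio fell at each step with no overlap between days. Each of days 1, 2 and 3 differed from day 0 with p = 0.1 in an exact 2-sided permutation test on the log2 ratio, the smallest p that 3 libraries against 3 allow. In GFP+ cells wild-type had ratios of 0.879 and 0.728, compared with 0.711 and 0.748 for *Nprl2* KO, and 1.01 and 0.966 for *Tsc2* KO. Both *Tsc2* KO libraries were above the other 4, and the exact permutation p of *Tsc2* KO against wild-type was 0.333, the smallest that 2 against 2 allow.

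**Figure D2:**
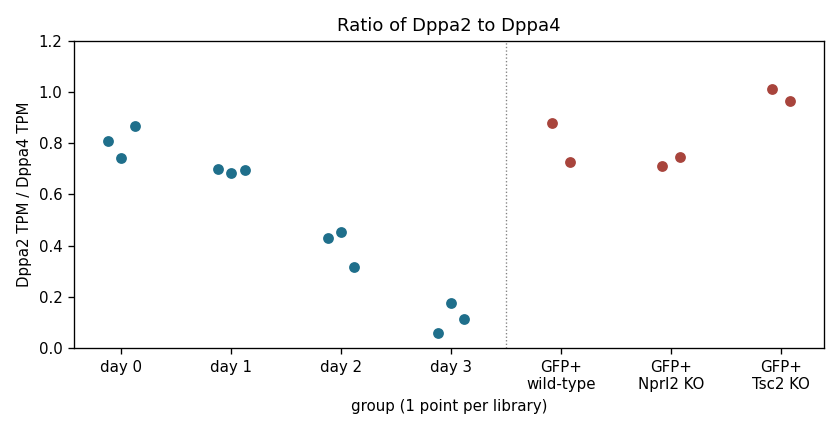
Ratio of *Dppa2* TPM to *Dppa4* TPM (vertical axis, linear from 0) in each library, 1 point per library, for the 4 days of differentiation (left of the dotted line) and the 3 genotypes of GFP+ cells (right). The ratio declined from between 0.742 and 0.867 at day 0 to between 0.0602 and 0.178 at day 3.

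*Dppa3* was near the detection limit throughout the time course and still declined. Its TPM was 2.50, 4.21 and 2.80 at day 0, 2.52, 3.56 and 1.96 at day 1, 0.895, 0.857 and 0.451 at day 2, and 0, 0.418 and 0.226 at day 3. Days 0 and 1 overlapped, day 2 lay below both, and day 3 lay below day 2. These values rest on 47 counts over the 3 libraries of day 0, 40 at day 1, 10 at day 2 and 3 at day 3. Day 3 held 6.31% of the CPM of day 0, with an exact 95% interval from 1.26% to 19.6% that covers counting error only. The log2 fold change against day 0 was -0.18 ± 0.37 at day 1 (edgeR adjusted p = 0.692), -2.13 ± 0.48 at day 2 (adjusted p = 6.66e-04) and -3.86 ± 0.60 at day 3 (adjusted p = 1.25e-05). The day 1 value was 0.09 without day 0 library 2 and 0.00 without day 1 library 3, so its sign rests on single libraries. Day 3 was not called against day 2 (-1.73 ± 0.82, adjusted p = 0.119).

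*Dppa5a* was by far the most abundant of the 4, and its RNA was mostly lost between days 1 and 2. Its TPM was 3368, 3460 and 3157 at day 0 and 2544, 2555 and 2407 at day 1. It was 673.7, 654.7 and 474.0 at day 2 and 185.7, 238.9 and 166.7 at day 3. No 2 days overlapped. At day 0 it ranked 37 or 38 of all genes by TPM in each library, and at day 3 it ranked between 604 and 923. From day 0 to day 1 the log2 fold change was -0.34 ± 0.14, just outside the threshold (edgeR adjusted p = 0.0642). It passed in several other fits, among them upper-quartile normalization (adjusted p = 0.0497), limma on log2(TPM + 1) (adjusted p = 0.0370) and a fit of the 2 days alone (adjusted p = 3.39e-05). It did not pass in DESeq2. With any 1 of the 6 libraries of these days left out it also missed the threshold (edgeR adjusted p from 0.1 to 0.162). The fall was -2.17 ± 0.15 from day 1 to day 2 (adjusted p = 5.18e-07) and -1.65 ± 0.16 from day 2 to day 3 (adjusted p = 5.17e-05). At day 3 the mean was 5.92% of day 0, a log2 fold change of -4.16 ± 0.17 (adjusted p = 2.23e-09).

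The order of mean TPM was *Dppa5a*, *Dppa4*, *Dppa2* and *Dppa3* in all 4 days and all 3 genotypes. *Dppa4* and *Dppa2* overlapped at day 0, in wild-type and in *Tsc2* KO, where *Dppa2* was higher in 1 of 2 libraries. At day 3 *Dppa5a*, with a lowest value of 166.7 TPM, remained above *Dppa4*, with a highest value of 114.3 TPM. Library 2 of day 3 had the highest level of each of the 4 genes among the libraries of that day, and leaving it out ended none of the day 3 calls. *Dppa1*, the only other gene in the table whose symbol begins with Dppa, was at 0.264 TPM or less in all 18 libraries.

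In GFP+ cells the 2 KOs moved *Dppa3* in opposite directions. *Dppa3* was the only member called in *Nprl2* KO against wild-type, where it was higher. Of 13725 genes tested, 6.43% were called in that comparison, and 2.78% of those tested were higher. In *Tsc2* KO, 29.1% of genes were called against wild-type, 14.9% higher and 14.2% lower, and of the members *Dppa3* and *Dppa4* were lower, *Dppa5a* was higher and *Dppa2* was not called. *Tsc2* KO against *Nprl2* KO gave the same 3 calls, where 34.2% of genes were called, 17.5% higher and 16.6% lower. Both KOs were compared with the same 2 wild-type libraries.

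**Figure D3:**
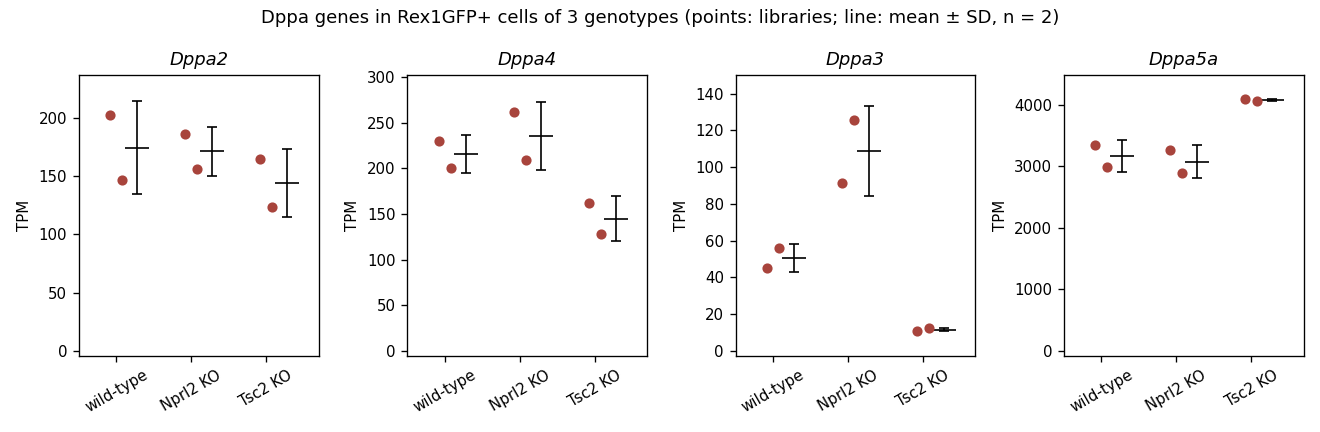
TPM of the 4 genes in GFP+ cells (vertical axes, each from 0 on its own linear scale) by genotype, with 1 point per library and the mean ± SD of 2 libraries as a black line. *Dppa3* was at 45.4 and 55.8 TPM in wild-type, above both *Tsc2* KO libraries and below both *Nprl2* KO libraries.

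*Dppa3* was at 45.4 and 55.8 TPM in wild-type, 91.6 and 125.9 TPM in *Nprl2* KO and 11.1 and 12.2 TPM in *Tsc2* KO. The 3 genotypes did not overlap. The log2 fold change against wild-type was 1.10 ± 0.19 in *Nprl2* KO (edgeR adjusted p = 0.00709) and -2.16 ± 0.23 in *Tsc2* KO (adjusted p = 9.4e-05). Compared directly, *Tsc2* KO was 3.26 ± 0.22 below *Nprl2* KO on the log2 scale (log2 fold change of -3.26, adjusted p = 2.77e-06), with a mean of 10.7% of that in *Nprl2* KO. The counts behind these values were 352 for wild-type, 941 for *Nprl2* KO and 108 for *Tsc2* KO. The rise in *Nprl2* KO was 0.94 without wild-type library 1 and then missed the threshold (adjusted p = 0.0576). *Nprl2* KO library 1 had longer fragments than the other 5 libraries, with transcript length exceeding effective length by 227.9 bases against 169.6 to 183.9 bases, and *Dppa3* is short at 818 bases. A fit with an offset for effective length, chosen after seeing the data, kept all 3 *Dppa3* calls.

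*Dppa4* and *Dppa2* were close to wild-type in *Nprl2* KO and lower on average in *Tsc2* KO. *Dppa4* was at 230.4 and 200.6 TPM in wild-type, 261.6 and 208.8 TPM in *Nprl2* KO, and 162.3 and 127.6 TPM in *Tsc2* KO. Both *Tsc2* KO libraries were below the other 4. Its log2 fold change against wild-type was 0.14 ± 0.15 in *Nprl2* KO (edgeR adjusted p = 0.660) and -0.62 ± 0.15 in *Tsc2* KO (adjusted p = 0.0286). The latter was not called without wild-type library 1 (-0.53, adjusted p = 0.151), without wild-type library 2 (-0.70, adjusted p = 0.0643) or without *Tsc2* KO library 2 (-0.43, adjusted p = 0.0560). The difference of *Tsc2* KO from *Nprl2* KO was -0.76 ± 0.15 (adjusted p = 0.0108) and was called with every library left out in turn.

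*Dppa2* was at 202.5 and 146.1 TPM in wild-type, 185.9 and 156.2 TPM in *Nprl2* KO, and 164.2 and 123.3 TPM in *Tsc2* KO. All 3 genotypes overlapped. Its log2 fold change was -0.0024 ± 0.23 in *Nprl2* KO (edgeR adjusted p = 0.999) and -0.32 ± 0.23 in *Tsc2* KO (adjusted p = 0.384). With no filter on low counts *Dppa2* was called in *Tsc2* KO (-0.32, adjusted p = 6.19e-04). It was also called lower there with a block for the replicate number, although the numbers were not taken as pairs. In each genotype library 1 was higher than library 2, as it was for *Dppa4* and *Dppa5a*, while *Dppa3* was higher in library 2.

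*Dppa5a* moved in the opposite direction to *Dppa3* and *Dppa4* in *Tsc2* KO. It was at 3351 and 2986 TPM in wild-type, 3262 and 2883 TPM in *Nprl2* KO, and 4083 and 4065 TPM in *Tsc2* KO. Both *Tsc2* KO libraries were above the other 4, and there it ranked 17 of all genes by TPM. The log2 fold change was -0.10 ± 0.06 in *Nprl2* KO (edgeR adjusted p = 0.432) and 0.30 ± 0.06 in *Tsc2* KO (adjusted p = 0.00407). *Tsc2* KO exceeded *Nprl2* KO by 0.40 ± 0.06 (adjusted p = 5.09e-04). Without wild-type library 2 the difference from wild-type was 0.23 and was not called (adjusted p = 0.0609).

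**Figure D4:**
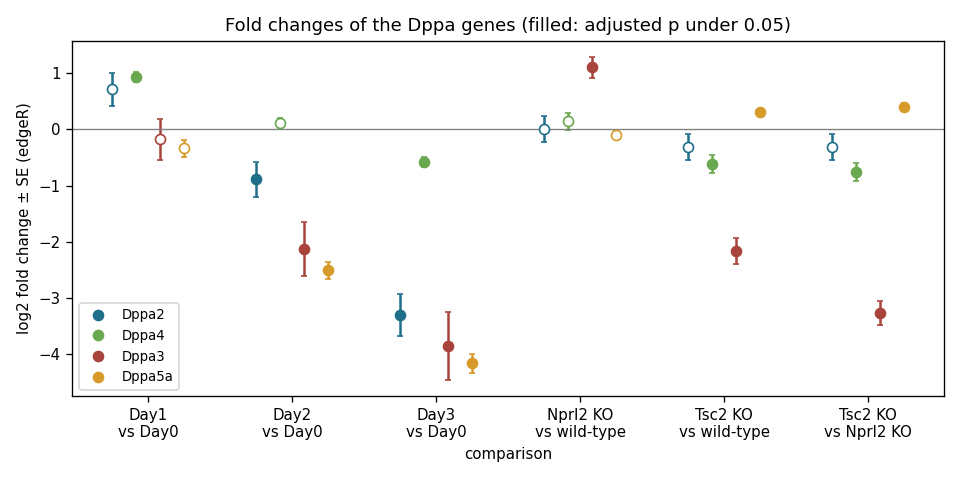
Log2 fold change ± SE from the edgeR fits (vertical axis, linear) of the 4 genes in 6 comparisons (horizontal axis), with filled points for an adjusted p under 0.05 and open points otherwise. The 4 genes spread from -4.16 to -0.59 between days 3 and 0, and *Dppa3* is the only filled point above 0 in *Nprl2* KO and the lowest point in *Tsc2* KO.

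Time-course and GFP+ levels came from separate experiments and are given side by side only. In the deposited tables transcript length exceeded effective length by 179 bases in all time-course libraries. *Dppa3* stood out, with 2.50 to 4.21 TPM at day 0 and 45.4 to 55.8 TPM in wild-type GFP+ cells, while *Dppa5a* had 3157 to 3460 and 2986 to 3351 TPM. Serum and LIF on feeders is the stated default for mESCs, and no other medium was found stated for the day 0 cells. Whether both experiments shared a medium is therefore not known. In its exit screen the study kept cells with inhibitors of the kinases MEK and Gsk3 and LIF before differentiation. Its differentiation assay and its quantitative PCR time course started from sorted GFP+ cells kept in serum and LIF. Mean TPM at day 0 and in wild-type GFP+ cells was 782 and 328 for *Nanog*, and 196 and 27.6 for *Klf4*. It was 100 and 338 for *Dnmt3b*, and 1845 and 1716 for *Pou5f1*. The cause of these differences was not tested.

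Genes of the 2-cell state, some of which are known to need the *Dppa2* and *Dppa4* pair, were described by a list of 17. Whether they depended on the pair in these cells was not tested. Of the 17, 12 passed the filter on low counts in the time course. Of the 12, 9 rose from day 0 to day 1, none fell and 3 were not called, beside 30.1% of all genes tested called higher. Their median log2 fold change was 1.41 beside 0.00 over all genes tested. The largest rises were those of *Usp17lc* (2.27), a deubiquitinase gene, and of *Zscan4d* (2.01), *Zscan4f* (1.77) and *Zscan4b* (1.69), members of a zinc finger family of the 2-cell embryo. *Zscan4f* went from a mean of 13.6 ± 4.6 TPM at day 0 to 43.9 ± 10.7 TPM at day 1 and 8.15 ± 1.11 TPM at day 3 (SD, n = 3). At day 3 the median of the 12 was -0.94 beside -0.01 over all genes. Of the 12, 7 were below day 0, where 35.9% of all genes tested were lower. *Duxf3*, a homeodomain activator of the 2-cell genes, was among them (-2.40, edgeR adjusted p = 0.00426), as were *Zscan4c* (-1.71), *Tmem92* (-1.65) and *Zscan4a* (-1.24). The *Zscan4* and *Usp17l* genes are near-identical copies, so reads may have been divided wrongly within each family.

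In GFP+ cells 15 of the 17 genes were tested. The summed TPM of the 15 list genes in the TPM table, which holds neither *Duxf3* nor *Zscan4e* but does hold *Tcstv1*, a gene not tested, lay between 611.2 and 975.5 in wild-type, between 962.1 and 1029 in *Nprl2* KO, and between 523.1 and 541.8 in *Tsc2* KO. In *Nprl2* KO, where 6.43% of all genes tested were called by edgeR, none was called by edgeR or by DESeq2. There 2 had an unadjusted edgeR p under 0.05, and 14 of 15 had a log2 fold change above 0. The median of the 15 was 0.33 there, beside 0.00 over all genes tested. The near-identical *Zscan4* and *Usp17l* copies among them are not independent. In *Tsc2* KO the median of the 15 was -0.53 beside 0.00 over all genes. Of the 15, 5 were lower and none was higher, beside 14.2% lower and 14.9% higher among all genes tested. They were *Duxf3* (-1.81), *Zscan4a* (-1.24), *Tmem92* (-0.73), *Zscan4b* (-0.69) and *Usp17lc* (-0.54). None of the 5 calls held with every library left out in turn. *Duxf3* lost its call without wild-type library 1 (adjusted p = 0.0605) and *Zscan4a* without *Tsc2* KO library 2 (adjusted p = 0.0580). *Zscan4b* lost it without *Tsc2* KO library 1 (adjusted p = 0.123) or 2 (adjusted p = 0.135). *Usp17lc* lost it without any 1 of the 4 libraries (adjusted p from 0.0647 to 0.176), and *Tmem92* without wild-type library 1 (adjusted p = 0.512) or *Tsc2* KO library 1 (adjusted p = 0.166) or 2 (adjusted p = 0.104). With all libraries kept, *Zscan4b* was not called in limma on log2(TPM + 1) (adjusted p = 0.0662) or in a fit of the 2 groups alone (adjusted p = 0.0582). *Tmem92* was not called in DESeq2 (adjusted p = 0.0879), in limma on log2(TPM + 1) (adjusted p = 0.125) or in the 2 groups alone (adjusted p = 0.0621), and *Usp17lc* was not called in DESeq2 (adjusted p = 0.196).

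Of 8 known regulators and partners of the pair, 5 were higher and 3 lower at day 3 than at day 0, where 70.9% of all genes tested were called. Their median log2 fold change was 0.24 beside -0.01 over all genes. *Smchd1*, a chromatin repressor of *Dux*, rose by a log2 fold change of 0.84 and *Kmt2a*, a histone H3 methyltransferase, by 0.59. *Trim28*, a corepressor, stood at -1.19 and *Pias4*, a SUMO ligase that modifies Dppa2, at -0.48. In *Tsc2* KO 2 of the 8 were lower, *Kmt2a* (-0.34, edgeR adjusted p = 0.0201) and *Smchd1* (-0.32, adjusted p = 0.00897). Of all genes tested, 29.1% were called there and 14.2% were lower. In *Nprl2* KO, where 6.43% of all genes tested were called, only *Kmt2a* was called (-0.41, adjusted p = 0.0255). Both *Tsc2* KO calls were lost without wild-type library 2 (adjusted p = 0.136 and 0.0732) or *Tsc2* KO library 2 (adjusted p = 0.185 and 0.0901), and the *Nprl2* KO call without wild-type library 2 (adjusted p = 0.141) or *Nprl2* KO library 2 (adjusted p = 0.183). In limma on log2(TPM + 1) none of these 3 calls was made (adjusted p = 0.131 for *Kmt2a* and 0.0586 for *Smchd1* in *Tsc2* KO, and 0.0963 for *Kmt2a* in *Nprl2* KO).

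*Dppa3* was also set beside 8 genes of DNA methylation. All 8 were called between days 3 and 0, with 3 higher and 5 lower, beside 70.9% of all genes called there, and with a median of -0.61 beside -0.01 over all genes. Of the 8, 2 were called in *Nprl2* KO and 3 in *Tsc2* KO, beside 6.43% and 29.1% of all genes tested. The de novo methyltransferase genes *Dnmt3b* (3.33) and *Dnmt3a* (2.28) rose, while their cofactor gene *Dnmt3l* (-5.44) and the demethylase gene *Tet2* (-4.37) fell. *Uhrf1*, whose product Dppa3 holds back, had a log2 fold change of -0.75 ± 0.06 (edgeR adjusted p = 1.47e-09). In *Nprl2* KO *Dnmt3b* was higher (0.45 ± 0.08, adjusted p = 0.00441) and *Tet2* lower (-0.43 ± 0.10, adjusted p = 0.0287). In *Tsc2* KO *Dnmt3b* was lower (-2.12 ± 0.08, adjusted p = 1.5e-08), as were *Tet1* (-0.68, adjusted p = 0.0485) and *Dnmt1* (-0.23, adjusted p = 0.0151). *Dnmt3b* thus had the same sign as *Dppa3* in each KO. The *Tet2* call was lost without wild-type library 1 (adjusted p = 0.158) or 2 (adjusted p = 0.0510) or *Nprl2* KO library 2 (adjusted p = 0.190). The *Tet1* and *Dnmt1* calls were lost without wild-type library 1 (adjusted p = 0.164 and 0.0908), wild-type library 2 (adjusted p = 0.0561 and 0.0583) or *Tsc2* KO library 2 (adjusted p = 0.144 and 0.137). With all libraries kept, *Tet2* was not called in limma on log2(TPM + 1) (adjusted p = 0.0852) or in the 2 groups alone (adjusted p = 0.0533), and *Tet1* was not called with upper-quartile normalization (adjusted p = 0.0509).

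*Dppa3* is a marker of primordial germ cells, and 9 of 10 other genes of that lineage passed the filter in the time course. By day 3, 7 were below day 0 and 1 was above, where 70.9% of all genes tested were called and 35.9% were lower. The median log2 fold change of the 9 was -3.13 beside -0.01 over all genes. *Prdm14*, a germ cell and naive pluripotency regulator, went from 34.5 ± 0.6 to 0.0184 ± 0.0319 TPM and *Tcl1*, an Akt coactivator, from 115.2 ± 17.1 to 0.118 ± 0.110 TPM (SD, n = 3). *Tfap2c* (-4.77) and *Dazl* (-3.90) fell as well. In *Nprl2* KO 3 of 10 were lower, *Tcl1* (-1.43), *Prdm1* (-0.88) and *Kit* (-0.70), and none was higher, beside 6.43% of all genes called. In *Tsc2* KO 3 were lower, *Nanos3* (-1.65), *Ifitm3* (-1.32) and *Prdm1* (-1.27), and 2 were higher, *Prdm14* (1.33) and *Dazl* (1.06). Of all genes tested, 14.2% were lower there and 14.9% higher. In *Nprl2* KO 3 of the 10 had a log2 fold change above 0, with a median of -0.10 beside 0.00 over all genes tested. *Ifitm3* had the order of *Dppa3*, with means of 152 TPM in wild-type, 225 TPM in *Nprl2* KO and 63.9 TPM in *Tsc2* KO. *Nanos3* means had this order too (5.10, 6.63 and 1.63 TPM), with overlap between wild-type and *Nprl2* KO. Neither was called in *Nprl2* KO. *Prdm1*, which directs germ cell fate, was called lower in both KOs, which *Dppa3* was not. Its call in *Nprl2* KO was lost without any 1 of the 4 libraries (adjusted p from 0.0717 to 0.197), and also in DESeq2 (adjusted p = 0.198), in limma on log2(TPM + 1) (adjusted p = 0.110) and in the 2 groups alone (adjusted p = 0.0513). The *Nanos3* call was lost without wild-type library 2 (adjusted p = 0.208), *Tsc2* KO library 1 (adjusted p = 0.120) or *Tsc2* KO library 2 (adjusted p = 0.140), and in DESeq2 (adjusted p = 0.135).

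*Dppa5a* was set beside 9 genes for related KH-domain proteins and for the subcortical maternal complex of the oocyte and early embryo. Only *Ooep*, *Khdc3*, *Tle6* and *Zbed3* passed the filter on low counts. At day 3, *Ooep* (-5.03 ± 0.15) and *Tle6* (-2.50 ± 0.21) were lower than at day 0 and *Zbed3* (0.71) was higher. *Khdc3* fell from 32.8 ± 3.7 TPM (SD, n = 3) at day 0 to 0 in all 3 libraries of day 3. In *Tsc2* KO *Khdc3* (1.66 ± 0.28, edgeR adjusted p = 0.00180) and *Tle6* (1.04 ± 0.19, adjusted p = 0.00140) were higher, as *Dppa5a* was. The other 2 genes of the list that were tested had values below 0 there. *Ooep*, the nearest neighbour of *Dppa5a*, had a log2 fold change of -0.52 (adjusted p = 0.0744), with a mean of 25.3 TPM against 35.2 TPM in wild-type, and was called lower with no filter (adjusted p = 0.00504) and in the 2 groups alone (adjusted p = 0.0375). *Zbed3* was at -0.13 (adjusted p = 0.547), and at 0.08 without wild-type library 1. In *Nprl2* KO *Ooep* was lower (-1.003 ± 0.21, adjusted p = 0.0181), a call that was lost without wild-type library 1 (adjusted p = 0.120) or *Nprl2* KO library 2 (adjusted p = 0.117), and in limma on log2(TPM + 1) (adjusted p = 0.0748).

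The members were also read against the lists of naive, formative and general pluripotency genes. Of all genes tested, 60.9% were called at day 1 against day 0, 29.1% in *Tsc2* KO and 6.43% in *Nprl2* KO. All 10 naive genes, among them *Nanog* and *Esrrb*, were already lower at day 1, with a median of -3.47, when *Dppa4* had risen. All 7 formative genes, among them *Fgf5* and *Otx2*, were higher at day 1, with a median of 4.11. Of 4 general pluripotency genes, *Utf1* (1.21) was higher and *Sox2* (-1.35) and *Sall4* (-0.41) were lower at day 1, with a median of -0.17. In *Tsc2* KO 8 of the 10 naive genes were higher (median 0.80), as was *Dppa5a*, and 6 of the 7 formative genes were lower (median -2.36), as were *Dppa3* and *Dppa4*. In *Nprl2* KO 6 of the 10 naive genes were lower (median -0.73), while *Dppa3* was higher. No formative gene was called there by edgeR, 1 was called by DESeq2, and 3 had an unadjusted edgeR p under 0.05. All 7 formative genes had a log2 fold change above 0 there, with a median of 0.46 beside 0.00 over all genes tested. Of the general list, *Utf1* (-0.64, edgeR adjusted p = 0.0488) and *Sall4* (-0.26, adjusted p = 0.0118) were lower in *Tsc2* KO. Both calls were lost without wild-type library 1 (adjusted p = 0.154 and 0.0715) or *Tsc2* KO library 2 (adjusted p = 0.120 and 0.113). The *Utf1* call was also lost with upper-quartile normalization (adjusted p = 0.0536), in limma on log2(TPM + 1) (adjusted p = 0.0737) and with the offset for effective length (adjusted p = 0.0661). In *Nprl2* KO none of the 4 was called by edgeR or DESeq2, with 1 at an unadjusted p under 0.05.

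The neighbours of the members on their chromosomes followed them in part, where they had levels to compare. *Gm52257*, the neighbour on the other side of *Dppa4*, had no TPM value, and *Gsta2* had a mean of 0.774 TPM or less in every group. *Gdf3*, a growth factor of the TGF-beta family that ends 16336 bases from *Dppa3*, went from 119.5 ± 4.0 TPM at day 0 to 28.7 ± 6.5 TPM at day 3 (-2.15 ± 0.12, edgeR adjusted p = 1.74e-10). *Nanog*, the pluripotency factor gene 77217 bases away on the other side, went from 782.2 ± 60.1 TPM to 21.3 ± 1.8 TPM at day 1 and was at 127.1 ± 38.2 TPM at day 3. At day 1 its log2 fold change was -5.15 ± 0.23 (adjusted p = 3.75e-08), while *Dppa3* was not called. In *Tsc2* KO *Gdf3* was lower (-0.60 ± 0.09, adjusted p = 5.89e-04) and *Nanog* was higher (0.91 ± 0.08, adjusted p = 8.51e-06). In *Nprl2* KO neither was called (*Gdf3* -0.20, adjusted p = 0.235, and *Nanog* -0.25, adjusted p = 0.0906). *Nanog* was called there by edgeR with no filter on low counts (adjusted p = 0.00610). It was also called with a block for the replicate number (-0.24, adjusted p = 0.00681), although the numbers were not taken as pairs. Without wild-type library 1 its value was -0.36.

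**Figure D5:**
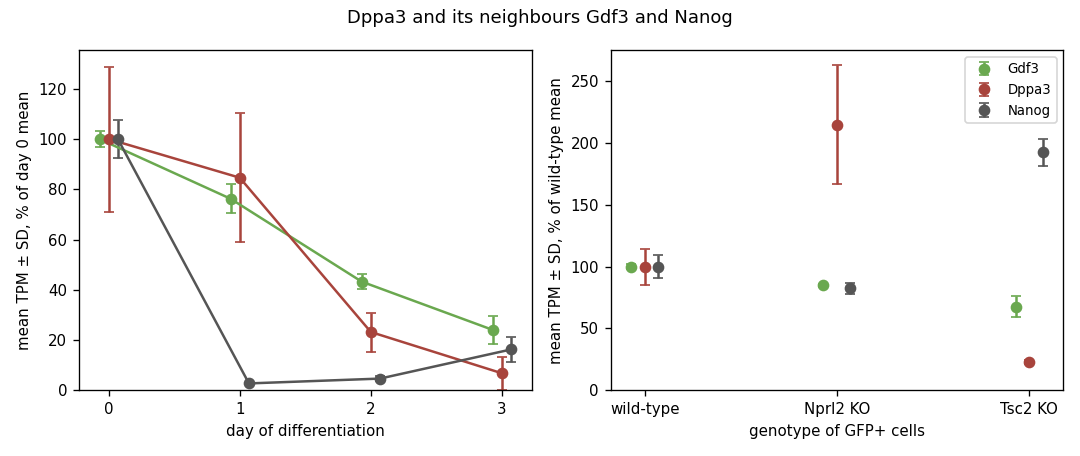
Mean TPM ± SD (vertical axes, linear from 0) of *Dppa3* and its chromosomal neighbours *Gdf3* and *Nanog*, as a percentage of the day 0 mean over the days of differentiation (left, n = 3) and of the wild-type mean over the genotypes of GFP+ cells (right, n = 2), with points shifted sideways for clarity. *Nanog* was at its lowest on day 1, when *Dppa3* was at 84.6% of day 0, and in *Tsc2* KO *Nanog* was above and *Dppa3* below wild-type.

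*Morc1*, a germ cell chromatin gene 111723 bases from *Dppa2*, was at 96.4 ± 1.7 TPM at day 0, 93.8 ± 5.9 TPM at day 1, 6.49 ± 2.37 TPM at day 2 and 0.850 ± 0.332 TPM at day 3 (SD, n = 3). Its log2 fold change was -3.93 ± 0.19 at day 2 and -6.89 ± 0.25 at day 3 (edgeR adjusted p = 4.25e-09 and 3.09e-10). It thus followed a course like that of *Dppa5a*, on another chromosome. It lacked the higher day 1 means of *Dppa2* and *Dppa4*, of which only that of *Dppa4* was called. *Ooep*, 8703 bases from *Dppa5a*, went from 71.3 ± 6.2 TPM at day 0 to 31.9 ± 1.6, 5.76 ± 0.70 and 2.30 ± 0.52 TPM on the next days.

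Among all genes tested, those whose log2 CPM correlated best with each member over the 12 time-course libraries were taken as a description. The points share libraries and are grouped by day. They were *Morc1* (Pearson r = 0.997), *Lncenc1* (0.996) and *Rbmxl2* (0.996) for *Dppa5a*, and *Yipf5* (0.987), *Rrn3* (0.984) and *Zbtb8a* (0.984) for *Dppa4*. For *Dppa2* they were *Zfp345*, *Gm14124* and *Nmd3*, all at 0.988. For *Dppa3*, at a few counts a library, they were *Galnt6* (0.985), *Rab9* (0.976) and *Gm14405* (0.975). Over the 6 GFP+ libraries the same pairs had r from -0.45 for *Morc1* to 0.93 for *Zbtb8a*. Between members, *Dppa3* and *Dppa5a* had r = 0.97 over the time course and -0.98 over the GFP+ libraries.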

How the data were processed

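RNA of 18 libraries was analysed. Per the submitters' processing notes, reads were counted with kallisto 0.42.1, DESeq2 was used and the build was mm10. The authors deposited estimated counts and TPM per RefSeq transcript, and a table of TPM per gene. Their own comparisons (log2 fold changes and p values) were not used. Of 34079 transcripts, 33713 were assigned to genes by the RefSeq table of GRCm38.p6 and 192 by GENCODE M21, and 174 were left out. Transcripts without a gene held 1.65% to 3.57% of counts. In the TPM table at least 99.7% of values matched those of their own library within 0.1%.

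Estimated counts were summed per gene, rounded and tested with edgeR 4.0.16 in R 4.3.3 (TMM, filterByExpr, robust quasi-likelihood F test, Benjamini-Hochberg adjustment over all genes of a comparison, threshold 0.05), with all 12 time-course libraries in 1 fit and all 6 GFP+ libraries in another. The SE is the absolute log2 fold change divided by the square root of F. Totals per library set the precision. About 3 counts is the upper 95% limit of the expected count where 0 is observed, and 3 counts equal 0.203 to 0.354 CPM. Alternatives were DESeq2 1.42.0, limma 3.58.1 on log2(TPM + 1) and log2(TPM + 0.1) for genes with at least 1 TPM in as many libraries as the smallest group, upper-quartile normalization, a block for the replicate number, the 2 groups alone, each library left out, no filter, and a minimum of 10 counts per library. Scripts were tested on simulated data. Correlations used TMM-normalized log2 CPM.

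The members and lists were chosen with earlier results of these data known, and list genes were written from general knowledge. Named are the members, the nearest protein-coding neighbours, the 3 best correlated genes per member, and up to 4 called genes of a list with the largest change, with *Uhrf1*, *Usp17lc*, and *Dazl* and *Zbed3* in *Tsc2* KO added after their values were seen. Naive and formative genes were named as examples of their lists, not by size of change. Promoters and proteins of the members are not shown here.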

Additional observations from a re-analysis of the deposited data

Results flagged for a closer look

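Effects of the 2 KOs differed for 3 of the 4 genes in the direct test of *Tsc2* KO against *Nprl2* KO (edgeR quasi-likelihood test, Benjamini-Hochberg adjustment), in which 34.2% of 13725 genes were called. *Dppa3* had a log2 fold change of -3.26 (adjusted p = 2.77e-06), with both *Tsc2* KO libraries below and both *Nprl2* KO libraries above both wild-type libraries. *Dppa4* had -0.76 (adjusted p = 0.0108), with both *Tsc2* KO libraries below both *Nprl2* KO libraries. *Dppa5a* had 0.40 (adjusted p = 5.09e-04), with both *Tsc2* KO libraries above both *Nprl2* KO libraries. Groups of 2 or 3 libraries are too small for a check of single outlying samples.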

How the results depend on the processing

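Of 315 tests of the 4 genes under settings that kept all libraries, 298 kept their direction and side of the threshold, as did 179 of 192 with a library left out. *Dppa5a* at day 1 against day 0 was called with upper-quartile normalization (-0.36), at least 10 counts (-0.35), the replicate block (-0.34), limma on log2(TPM + 1) (-0.41) or log2(TPM + 0.1) (-0.41), and the 2 groups alone (-0.35), and *Dppa2* with the 2 groups alone (0.69). *Dppa2* at day 2 against day 0 was not called in limma on log2(TPM + 1) (-0.86) or log2(TPM + 0.1) (-0.87). *Dppa3* at day 3 against day 2 was called in limma on log2(TPM + 0.1) (-1.65). *Dppa2* in *Nprl2* KO turned to 0.00083 with at least 10 counts, 0.014 with the block and 0.00078 with the length offset. *Dppa2* was called in *Tsc2* KO with no filter (-0.32) or the block (-0.31), and against *Nprl2* KO likewise (-0.32 and -0.33). The cause of these changes was not tested.

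With each library left out, values ranged from -0.44 to 0.085 (*Dppa3*, day 1 against day 0), -1.02 to -0.73 (*Dppa2*, day 2 against day 0), -0.20 to 0.23, 0.80 to 1.33 and -0.024 to 0.29 (*Dppa2*, *Dppa3* and *Dppa4* in *Nprl2* KO), and -0.81 to -0.43 and 0.23 to 0.37 (*Dppa4* and *Dppa5a* in *Tsc2* KO), and from -0.30 to 0.080 for *Zbed3* there. Counts of called genes ranged from 2969 (without day 2 library 2) to 5055 for day 3 against day 2, 339 to 548 in *Nprl2* KO without any 1 of the 4 libraries, 2225 (without *Tsc2* KO library 2; 2661 without wild-type library 1) to 3057 in *Tsc2* KO, and 2974 (without *Tsc2* KO library 2) to 3616 between the KOs. A group left with 1 library was assumed to vary like the others.

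The count in *Nprl2* KO was 883, 1667 with no filter and 2072 with the replicate block. Correlations of deviations between libraries of the same number lay between -0.113 and 0.133 in the time course, where 4 of 12 libraries were closest to their own number, and between 0.0848 and 0.164 in GFP+ cells (6 of 6), with only 2 numbers, so the numbers were not taken as pairs. Calls higher and lower were 4677 and 4254 at day 2 against day 1 and 5348 and 3141 in limma on log2(TPM + 1), 5216 and 5029 against 6048 and 3684 at day 3 against day 1, and 2408 and 2284 against 2510 and 1544 between the KOs. There the median of all genes moved from 0.02 to 0.13 at day 3 against day 1. Of tests of other named genes, 288 of 330 with a library left out and 546 of 581 under other settings kept direction and side. With the block, *Nanog* in *Nprl2* KO (-0.24, adjusted p = 0.00681) and *Ooep* in *Tsc2* KO (-0.51, adjusted p = 0.00481) were called, and *Zscan4b* in *Tsc2* KO (-0.68, adjusted p = 0.144) was not. Depth limits *Dppa3* in the time course, at 3 to 47 counts a day.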
